A study of Mus musculus with 28 samples.

Results

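Transcripts of 10 genes of tumor necrosis factor (TNF) signalling were followed through the healing of mouse skin wounds: the cytokine Tnf, its receptors Tnfrsf1a (TNFR1) and Tnfrsf1b (TNFR2), the adaptors Traf1 and Traf2, the ubiquitin ligases Birc2 (cIAP1) and Birc3 (cIAP2), the ubiquitin-editing enzyme Tnfaip3 (A20), the deubiquitinase Cyld, and Cflar (cFLIP), the brake on caspase-8. They were taken by symbol from a count table of 29068 gene symbols, each symbol matched 1 row, and all 10 were among the 18107 genes that passed the filter on low counts. Total RNA was sequenced from the wounds of MLKL+/+ mice on the C57BL/6J background, at 7 time points labelled Day0, Day3, Day5, Day7, Day10, Day12 and Day14, with 4 libraries each. The wounds were full-thickness punch excisions of the dorsal skin left to heal without treatment, and no library from mice lacking Mlkl was analysed here. The whole wound site was taken, so each library mixes epidermis, dermis, scab, blood-derived cells and, where reached, muscle, and each value is an average over these cells. Males and females were used, and the sex of each library is not given in the sources used here.

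Day0 is the control in the labels and the reference of the comparisons below. The study's text calls its earliest time point day 1, the day of injury, so Day0 is taken here as skin from around the time of wounding. The labels number the libraries of each day but do not tie them to mice, so P-values measure a spread between libraries. The edgeR fit uses 1 estimate of this spread per gene over all 7 time points. That estimate is not specific to Day0, whose libraries varied most. Each library held 36706513 to 40655764 counts. The Day0 libraries differed among themselves more than those of any other day: their biological coefficient of variation was 26.5%, against 5.81% to 10.8% on the other days. In Day0 replicates 1 and 4 the summed level of 6 fibroblast genes was 25000 and 14300 CPM (counts scaled to a common library total) and that of 6 skeletal muscle genes 28100 and 30000 CPM, whereas Day0 replicates 2 and 3 had 56000 and 53700 CPM of the fibroblast genes and 16400 and 16700 CPM of the muscle genes. The calls against Day0 were therefore also made without either pair of libraries, a choice made after seeing these sums, and every comparison with Day0 shares these 4 control libraries.

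TNF binds TNFR1, which is found on most cells, and TNFR2, which is found mainly on leukocytes and endothelium. At TNFR1 the adaptors TRADD and TRAF2 bring in cIAP1 and cIAP2, whose ubiquitin chains on RIPK1 hold the receptor complex in its NF-kappaB-activating state, and NF-kappaB in turn induces genes such as Tnfaip3, Birc3, Traf1 and Cflar. A20 and CYLD dampen this signal by editing or removing ubiquitin chains, and cFLIP blocks caspase-8, so loss of the chains or of cFLIP turns the same receptor towards apoptosis or, through RIPK3 and MLKL, necroptosis. In skin wounds TNF is a known product of the early inflammatory phase.

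Most of these genes rose early and fell back, and several ended below their Day0 level. On Day3 the ligand, both receptors, Traf1, Birc3, Tnfaip3 and Cflar were higher than on Day0 at an adjusted p under 0.05, 7 of the 10 genes, where 31.8% of all genes tested were higher. Birc2 was the 1 gene called lower, where 34.8% of all genes were lower. On Day5 the same 7 genes were higher, against 29.0% of all genes, and Cyld was the 1 gene lower, against 30.6%. The median log2 fold change of the 10 genes was 0.92 on Day3 and 0.75 on Day5, beside medians of -0.03 and -0.02 over all genes tested. With DESeq2 size factors Traf2 joined the genes higher on Day3 (log2 fold change of 0.16, adjusted p = 0.04) and Birc2 left the genes called lower, so that the split became 8 to 0.

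After Day5 fewer of the genes were higher, and by Day14 the lower calls outnumbered the higher ones. On Day7, 4 genes were higher (Tnf, Tnfrsf1b, Traf1 and Cflar) and 2 lower (Traf2 and Cyld), where 25.6% and 24.8% of all genes were called. On Day10, Tnf and Tnfrsf1b were higher and Tnfrsf1a, Birc3 and Cyld lower, against 23.5% and 26.9% of all genes, and the split of 2 to 3 became 3 to 2 when counts were scaled by library totals alone, with Traf1 added (log2 fold change of 0.24, adjusted p = 0.045). The lower count of Day7 and both counts of Day10 are near the shares over all genes. On Day12, 1 gene was higher (Tnf) and 6 were lower (Tnfrsf1a, Traf2, Birc2, Birc3, Tnfaip3 and Cyld), against 21.7% and 25.6% of all genes. On Day14 none was higher and 8 were lower, all but Tnf and Tnfrsf1a, against 28.2% and 34.5% of all genes, and the median of the 10 genes was -0.44 beside -0.06 over all genes. No gene was higher on Day14 at an unadjusted P under 0.05 in edgeR or by DESeq2 either. The calls of Day12 depend on the scaling: library totals alone moved the median of all genes up by 0.143 on Day12 and 0.126 on Day14, which changed the split on Day12 from 1 to 6 into 2 to 2 with Tnfrsf1b added to the higher genes (0.37, adjusted p = 0.0037), and left 6 genes lower on Day14. Without Day0 replicate 1 alone, 3 genes were lower on Day12 and 5 on Day14. With only the 8 libraries compared, edgeR called 1 gene lower on Day10, 5 on Day12 and 5 on Day14. Without Day0 replicates 1 and 4 the lower calls were 3 on Day12 and 6 on Day14, and without Day0 replicates 2 and 3 they were 5 and 7.

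**Figure D1:**
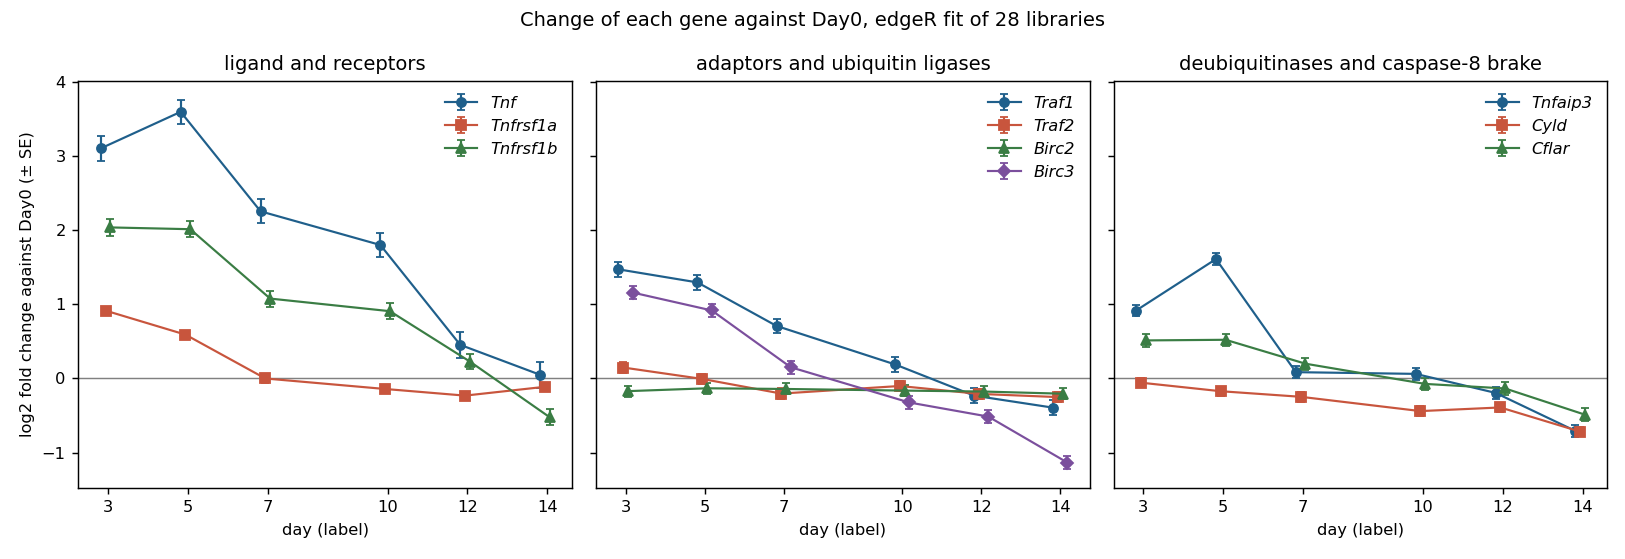
Log2 fold change of each gene against Day0 (vertical axis, with its standard error as bars) by day (horizontal axis), from the edgeR fit of all 28 libraries, in 3 panels by role. Tnf and Tnfrsf1b carry the largest increases, Traf2 and Birc2 stay near 0, and Birc3, Tnfaip3 and Cyld are the lowest on Day14.

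By the study's own criteria, a log2 fold change beyond 1.5, up or down, at an unadjusted P under 0.05, few of the genes passed. These were Tnf and Tnfrsf1b on Day3, where 18.9% of all genes passed, and Tnf, Tnfrsf1b and Tnfaip3 on Day5, where 13.9% did. Tnf alone passed on Day7 and on Day10, beside 9.4% and 9.47% of all genes. None passed on Day12 or Day14, beside 7.39% and 14.0%.

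The genes spanned a wide range of levels, which are given in FPKM because this unit is divided by gene length. Tnfrsf1a was the most abundant of the 10 in every library of every day. On Day0 its level was 88.7 ± 7.81 FPKM (SD, n = 4) and that of Tnf, the least abundant, 1.18 ± 0.324 FPKM (SD, n = 4). Between them lay Tnfrsf1b, Birc3 and Cflar, which overlapped as neighbours in this order, then Birc2 above Cyld, Tnfaip3 and Traf2, and then Traf1. The Tnf level of a library rested on 66 to 957 counts, that of the other genes on at least 277. Tnf had risen to rank 5 by Day3 and was at rank 5 again on Day5, when Birc3, Tnfaip3 and Tnf overlapped as neighbours in this order. By mean FPKM Tnf was the least abundant again on Day12, when its libraries overlapped those of Traf1, and on Day14.

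**Figure D2:**
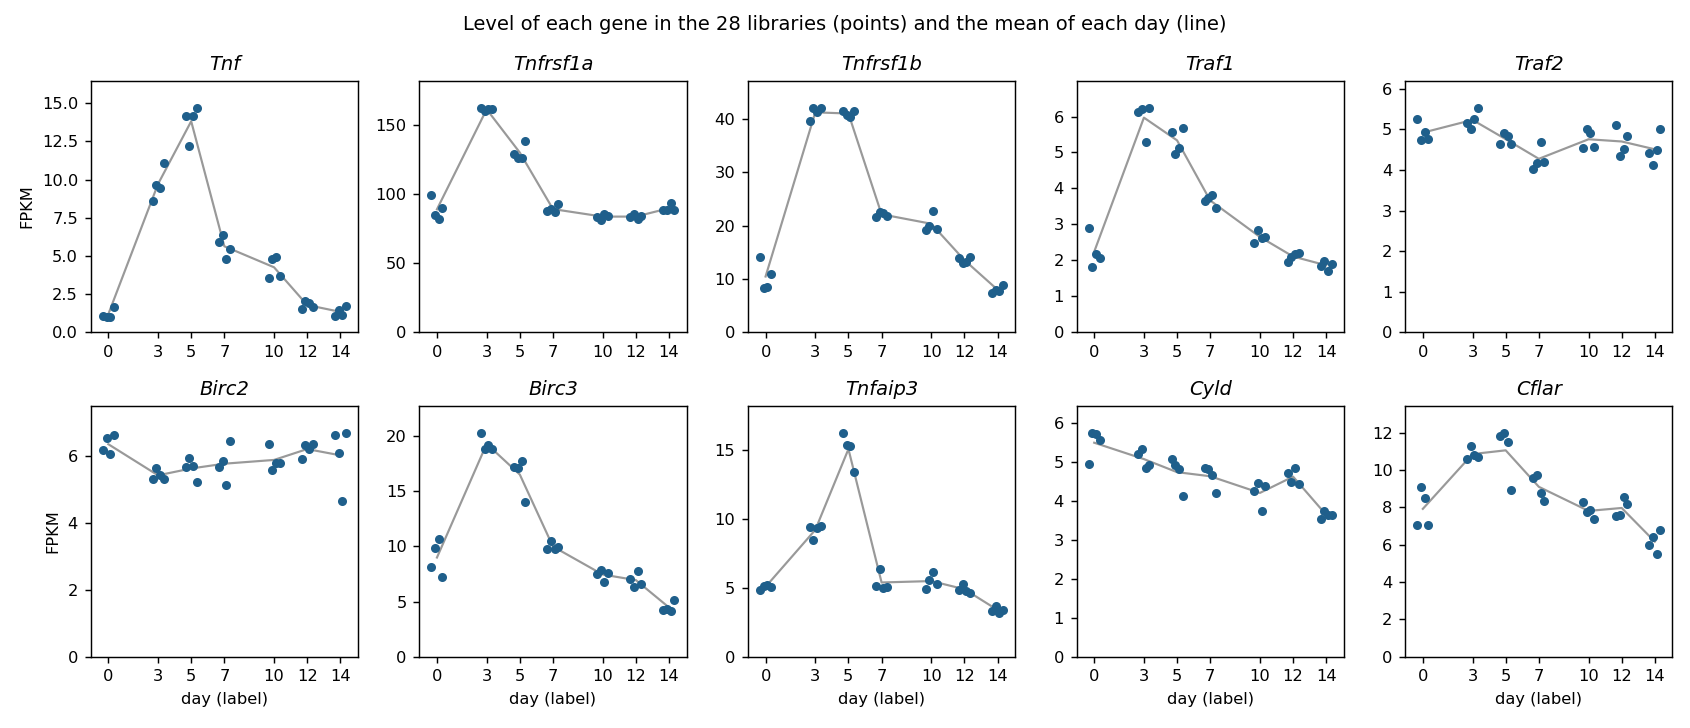
FPKM (vertical axis, each panel from 0 on its own scale) of the 10 genes by day (horizontal axis). Points are the 28 libraries and the line joins the means of 4. Tnf and Tnfaip3 are highest on Day5, Tnfrsf1a, Tnfrsf1b, Traf1 and Birc3 on Day3, and Birc2 and Traf2 change little.

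Tnf lies on chromosome 17 (chr17:35199367-35202007, mm10). Its level in the 4 Day0 libraries was 1.05, 0.986, 1.02 and 1.66 FPKM. It was 8.62, 9.66, 9.47 and 11.1 FPKM on Day3 and 14.2, 12.2, 14.2 and 14.7 FPKM on Day5. All libraries of both days lay above all of Day0, at 8.59 and 12.1 times its level in the fit (log2 fold changes of 3.10 ± 0.165 and 3.60 ± 0.166, SE, adjusted p = 2.2e-15 and 2.4e-16). The increase from Day3 to Day5 was itself called, at a log2 fold change of 0.49 ± 0.142 (adjusted p = 0.012), and again the 2 groups of libraries did not overlap, although without Day3 replicate 1 it was 0.40 and not called (adjusted p = 0.066). Afterwards the level stepped down to 4.78 to 6.37 FPKM on Day7 and 3.58 to 4.90 FPKM on Day10, both still above every Day0 library. On Day12 it was 1.51, 2.05, 1.90 and 1.66 FPKM, which overlapped Day0 because of Day0 replicate 4. The call of Day12 (log2 fold change of 0.45, adjusted p = 0.031) was lost in 7 of 20 alternatives, 5 of which left out 1 library (Day0 replicate 1, 2 or 3 or Day12 replicate 2 or 3, at 0.38 to 0.43), and became 0.26 without Day0 replicates 2 and 3. On Day14 the range of 1.04 to 1.70 FPKM lay within that of Day0 apart from its highest library (log2 fold change of 0.05, adjusted p = 0.83).

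The 2 receptors differed in size and duration of change. Tnfrsf1a (chr6:125349723-125362483), the receptor that carries a death domain, stood at 99.2, 84.3, 81.5 and 90.0 FPKM on Day0 and at 162, 160, 161 and 161 FPKM on Day3. Its Day3 libraries were the most alike of any day, and its rise was 1.88 times (log2 fold change of 0.91 ± 0.0557, adjusted p = 4e-14). By Day5 it had come down to 126 to 138 FPKM, and from Day7 on its libraries overlapped Day0 in FPKM, at means of 83.5 to 89.5 FPKM. The lower calls of Tnfrsf1a on Day10 and Day12 were small, at log2 fold changes of -0.14 and -0.23, and were lost in 12 and 5 of 20 alternatives. Without Day0 replicate 1 the Day10 value was -0.08 and not called. With 1 library left out the Day12 value came as near 0 as -0.15 and stayed called.

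Tnfrsf1b (chr4:145212368-145246870), the receptor without a death domain, rose from 14.1, 8.29, 8.40 and 11.0 FPKM on Day0 to 39.6, 42.1, 41.3 and 42.1 FPKM on Day3 and 41.6, 40.7, 40.4 and 41.5 FPKM on Day5. These were 4.1 and 4.03 times the Day0 level, with log2 fold changes of 2.04 ± 0.109 and 2.01 ± 0.109 (adjusted p = 2.7e-15 and 6.3e-15). It then came down to 2.11 times Day0 on Day7 and 1.87 times on Day10. On Day14 its 4 libraries, 7.35, 7.98, 7.69 and 8.80 FPKM, fell below those of Day0 after TMM scaling (log2 fold change of -0.52 ± 0.107, adjusted p = 0.00012). In FPKM the highest of these libraries overlapped the lowest 2 of Day0. The Day14 call was kept in all 20 alternatives, with log2 fold changes from -0.72 to -0.19, and the value nearest 0 came without Day0 replicates 1 and 4.

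The TRAF adaptors changed to different extents. Traf1 (chr2:34941750-34961812), which lacks the RING domain of the other TRAFs and is itself an NF-kappaB target, went from 2.91, 1.81, 2.18 and 2.05 FPKM on Day0 to 6.12, 6.22, 5.30 and 6.24 FPKM on Day3. This was a rise of 2.77 times (log2 fold change of 1.47 ± 0.0996, adjusted p = 3.6e-13), followed by 2.45 times on Day5 and 1.63 times on Day7, all without overlap with Day0. On Day10 and Day12 it was not called, and on Day14 it was lower, at a log2 fold change of -0.40, a call lost in 4 of 20 alternatives, among them the one without Day0 replicate 1 (-0.16, adjusted p = 0.11). Traf2 (chr2:25517982-25546940), the adaptor that recruits the cIAPs, stayed between 4.03 and 5.53 FPKM in all 28 libraries. Its largest log2 fold change was -0.25 ± 0.0689, on Day14, and its lower calls on Day7, Day12 and Day14 were lost in 3, 8 and 6 of 20 alternatives. Leaving out Day0 replicate 1 ended all 3 of these calls (log2 fold changes of -0.17, -0.15 and -0.14), as did leaving out Day7 replicate 1 for Day7 (-0.17) and Day12 replicate 2 for Day12 (-0.17).

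Birc2 and Birc3 lie beside each other on chromosome 9 (chr9:7818226-7837131 and chr9:7847468-7873205) and encode the related ligases cIAP1 and cIAP2, but their transcripts changed differently. Birc2 ranged from 4.67 to 6.70 FPKM over all libraries, with log2 fold changes between -0.21 and -0.13 on all 6 days. Over the 6 wound days alone no difference was detected for Birc2 (edgeR joint test over 6 days, F = 0.248, adjusted p = 0.939), whereas the other 9 genes differed among these days, with adjusted p from 1.25e-19 for Tnfaip3 to 3.45e-05 for Traf2, where 85.1% of all genes did. The lower calls of Birc2 on Day3, Day12 and Day14 were lost in 11, 16 and 14 of 20 alternatives. Without Day0 replicate 4 alone these values were -0.10, -0.14 and -0.11, and none was called. Birc3 stood at 8.17, 9.84, 10.7 and 7.24 FPKM on Day0 and at 20.3, 18.8, 19.2 and 18.8 FPKM on Day3, which was 2.23 times higher (log2 fold change of 1.16 ± 0.0886, adjusted p = 4.9e-12). It was still 1.89 times higher on Day5 and not called on Day7. On Day14 its libraries were at 4.28, 4.37, 4.13 and 5.10 FPKM, all under the lowest Day0 library, at 0.455 of the Day0 level (log2 fold change of -1.14 ± 0.091, adjusted p = 2e-11). This was the largest decrease among the 10 genes, and its log2 fold change stayed between -1.32 and -0.84 in all 20 alternatives.

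Tnfaip3 (chr10:19000910-19015410) peaked on Day5. Its Day0 libraries were close together, at 4.88, 5.16, 5.25 and 5.06 FPKM. They were followed by 9.47, 8.52, 9.38 and 9.54 FPKM on Day3 and by 16.3, 15.4, 15.3 and 13.4 FPKM on Day5, the only day on which Tnfaip3 stood above Cflar in every library. The rise was 1.89 times on Day3 and 3.05 times on Day5 (log2 fold changes of 0.92 ± 0.0782 and 1.61 ± 0.0788, adjusted p = 4.6e-11 and 8.1e-16), and the step between these days was called as well (0.69 ± 0.0766, adjusted p = 9.5e-08). By Day7 the level was back at 5.12, 6.38, 5.03 and 5.08 FPKM and overlapped Day0. The lower call of Day12 (log2 fold change of -0.20, adjusted p = 0.043) was lost in 14 of 20 alternatives, 7 of them with 1 library left out (any Day0 replicate, or Day12 replicate 1, 3 or 4, at -0.20 to -0.17), and was -0.04 at its nearest to 0. On Day14 it was 3.33, 3.68, 3.20 and 3.40 FPKM, below every Day0 library, with a log2 fold change of -0.71 ± 0.08 (adjusted p = 1.4e-08).

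Cyld (chr8:88696878-88751946), the other deubiquitinase, did not rise on any day. It went from 4.94, 5.75, 5.71 and 5.56 FPKM on Day0 to 4.25, 4.45, 3.74 and 4.37 FPKM on Day10 and 3.53, 3.75, 3.64 and 3.64 FPKM on Day14. All libraries of Day10 and Day14 lay below all of Day0, with log2 fold changes of -0.44 ± 0.0638 and -0.72 ± 0.0642 (adjusted p = 1.6e-06 and 1.7e-10). On Day3 it was not called (-0.06 ± 0.0635, adjusted p = 0.43), and the lower call of Day5 (-0.17) was lost in 6 of 20 alternatives.

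The bases just before the annotated starts of these genes are shown for 3 of them, because Tnf and Tnfaip3 rose further from Day3 to Day5 and Cyld holds the same motif as Tnfaip3 without a rise. The windows are the 250 bases before the start in RefSeq (GRCm38.p6, the build of mm10), written 5′ to 3′ on the strand of the gene. All 10 genes had at least 1 window, 12 windows in all. Capitals mark matches to the kappa B consensus bound by NF-kappaB, to the AP-1 site TGANTCA, and to the TATA box TATAAA, each searched on both strands.
Tnfaip3, chr10:19015411-19015660, minus strand: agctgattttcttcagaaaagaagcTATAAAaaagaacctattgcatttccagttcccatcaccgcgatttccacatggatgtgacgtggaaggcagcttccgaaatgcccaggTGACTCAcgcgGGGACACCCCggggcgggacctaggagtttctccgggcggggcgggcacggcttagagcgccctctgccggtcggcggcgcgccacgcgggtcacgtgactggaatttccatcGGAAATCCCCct
Cyld, chr8:88696778-88697027, plus strand: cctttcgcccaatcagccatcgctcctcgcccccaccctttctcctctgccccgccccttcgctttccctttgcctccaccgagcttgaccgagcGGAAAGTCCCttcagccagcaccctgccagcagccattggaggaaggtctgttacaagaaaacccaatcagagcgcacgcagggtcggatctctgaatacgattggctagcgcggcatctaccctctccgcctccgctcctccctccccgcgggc
Tnf, chr17:35202008-35202257, minus strand: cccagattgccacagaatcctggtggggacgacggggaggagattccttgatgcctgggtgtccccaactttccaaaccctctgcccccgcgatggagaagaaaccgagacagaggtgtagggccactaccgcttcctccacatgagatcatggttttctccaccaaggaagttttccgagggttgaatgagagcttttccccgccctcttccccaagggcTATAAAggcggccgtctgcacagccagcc
Counted back from the start, the Tnfaip3 window shown has kappa B matches beginning at -125 and -12, an AP-1 match at -136 and a TATA match at -225. A second Tnfaip3 start in the table, with the window chr10:19011964-19012213, has no match to these motifs. The Cyld window has 1 kappa B match, at -155, the Tnf window a TATA match at -29, and the Cflar window, not shown, 2 overlapping TATA matches at -134 and -132. Of all 32851 windows of this length in the table, 7.25% hold a kappa B match, 6.75% an AP-1 match and 12.4% a TATA match. Tnfaip3 and Cyld were the 2 of the 10 genes with a kappa B match here, and the letters in a window do not show that a factor was bound. Nor does a window without a match show that a gene lacks a site, since bases outside the 250 and other forms were not searched.

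Cflar (chr1:58711311-58758884) changed less than the other genes that rose. It went from 7.03, 9.09, 8.52 and 7.03 FPKM on Day0 to 10.6, 11.3, 10.8 and 10.7 FPKM on Day3 and 11.8, 12.0, 11.5 and 8.90 FPKM on Day5. The rise was 1.43 times on both days (log2 fold changes of 0.51 and 0.52, each ± 0.0833, adjusted p = 5e-06 and 4.8e-06). In FPKM Day5 replicate 4 fell within the Day0 range, and after TMM scaling all 4 libraries lay above it. The higher call of Day7 (0.20, adjusted p = 0.049) was lost in 15 of 20 alternatives. On Day14 Cflar was at 5.96, 6.39, 5.50 and 6.80 FPKM, below every Day0 library (log2 fold change of -0.49 ± 0.0838, adjusted p = 1.2e-05).

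The grouping of Day0 replicates 1 and 4 against 2 and 3, chosen from the fibroblast and muscle sums, separated 7 of the 10 genes in FPKM, near the 62.6% of all genes tested that it separated. Replicates 1 and 4 both lay above the other pair for Tnf, Tnfrsf1a and Tnfrsf1b and both below it for Birc3, Tnfaip3, Cyld and Cflar. Of the marker lists not used for the grouping, the neutrophil genes (46.4 and 40.7 CPM in replicates 1 and 4, 17.0 and 17.1 CPM in 2 and 3) and basal keratinocyte genes (7040 and 8170, 3900 and 4010 CPM) were higher, and the endothelial, T cell and macrophage genes lower, in summed level. The part of these cells in the gene levels was not tested. With each pair left out in turn, the Day3 log2 fold change of Tnfrsf1b was 2.37 without replicates 1 and 4 and 1.82 without replicates 2 and 3, that of Birc3 0.97 and 1.42, and that of Cflar 0.36 and 0.73. All 6 values remained called.

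The ratio of 2 related genes within a library does not depend on the scaling of the libraries, and 4 such pairs were compared with Day0 on 6 days by an exact two-sided permutation test, 4 libraries against 4, with adjustment over the 24 tests. The smallest p this design allows is 0.0286, which became 0.0457 after adjustment. TNFR2 transcript rose relative to TNFR1 transcript. In FPKM, Tnfrsf1b was 0.0984 to 0.143 of Tnfrsf1a on Day0, 0.301 to 0.322 on Day5 and 0.15 to 0.17 on Day12. The log2 ratio was higher than on Day0 by 1.15, 1.46, 1.11, 1.08 and 0.49 on Day3, Day5, Day7, Day10 and Day12, without overlap of libraries on any of these days (exact permutation p = 0.0286, adjusted p = 0.0457 each). On Day14 it differed by -0.38, and the libraries overlapped those of Day0 (exact permutation p = 0.0571, adjusted p = 0.0807).

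Birc3 rose relative to Birc2, from 1.09 to 1.76 times its FPKM on Day0 to 3.33 to 3.83 times on Day3, and stood at 0.646 to 0.884 of it on Day14. The log2 ratio differed from Day0 by 1.35 on Day3, 1.06 on Day5 and -0.90 on Day14 (exact permutation p = 0.0286, adjusted p = 0.0457 each), and on Day7, Day10 and Day12 the libraries overlapped those of Day0. Per length, cIAP2 transcript exceeded cIAP1 transcript in all libraries of Day0 and Day3 and was below it in all libraries of Day14.

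Traf1 reached the level of Traf2 on Day3 and Day5, at 1.01 to 1.24 and 1.01 to 1.23 times its FPKM, after 0.382 to 0.555 on Day0. The differences in log2 ratio from Day0 were 1.34, 1.32 and 0.94 on Day3, Day5 and Day7 (exact permutation p = 0.0286, adjusted p = 0.0457 each), and from Day10 on the libraries overlapped. Tnfaip3 rose from 0.897 to 0.989 of Cyld on Day0 to 3.12 to 3.26 times on Day5. Its log2 ratio to Cyld was higher than on Day0 by 0.97, 1.78, 0.33 and 0.50 on Day3, Day5, Day7 and Day10 (exact permutation p = 0.0286, adjusted p = 0.0457 each). On Day14 the 2 genes had both fallen and their ratio was at 0.879 to 0.981, a difference of 0.01 (exact permutation p = 0.886, adjusted p = 0.924).

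**Figure D3:**
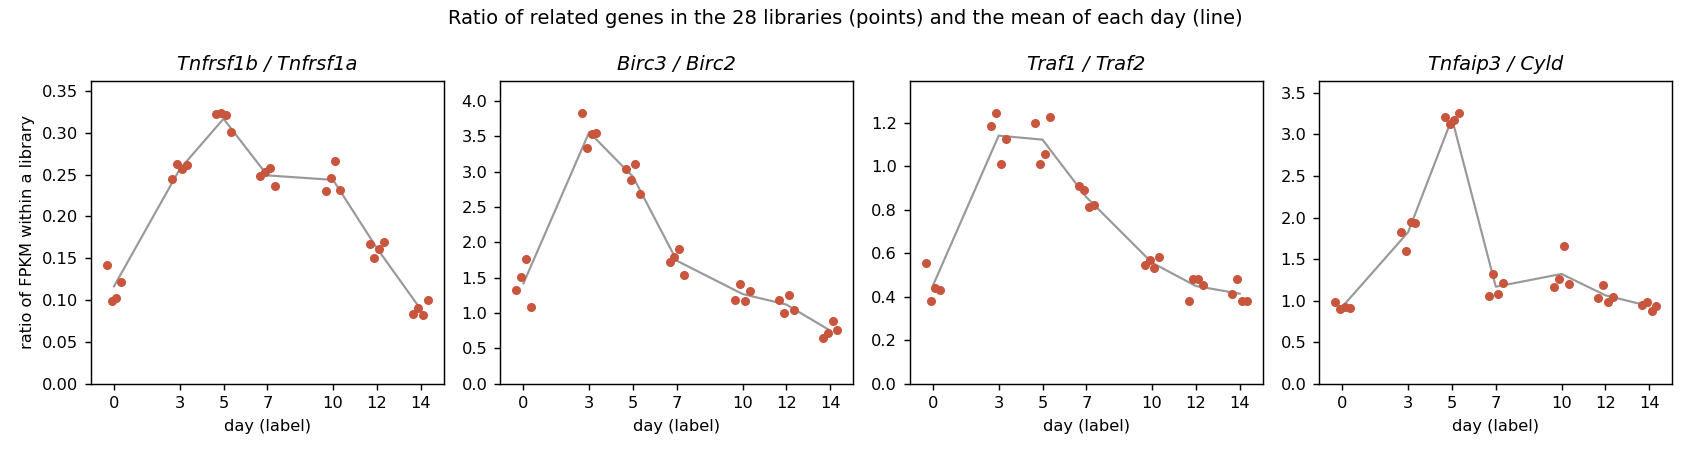
Ratio of the FPKM of 2 related genes within each library (vertical axis, each panel from 0) by day (horizontal axis). Points are the 28 libraries and the line joins the means of 4. The ratio of Tnfrsf1b to Tnfrsf1a and that of Tnfaip3 to Cyld are highest on Day5, and Birc3 drops below Birc2 on Day14.

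Steps between successive wound days compare no Day0 library, although the Day0 libraries take part in the scaling, filter and spread of the fit. With only the 8 libraries of a step fitted, 7, 7 and 5 genes were lower from Day5 to Day7, Day7 to Day10 and Day10 to Day12. In the fit of all 28 libraries these counts were 8, 5 and 4. From Day3 to Day5, Tnf and Tnfaip3 rose further while Tnfrsf1a and Birc3 already fell, where 12.9% of all genes were higher and 11.4% lower. The Birc3 step was small (-0.24, adjusted p = 0.043) and with library totals alone the split of 2 to 2 became 2 to 1. From Day5 to Day7, 8 of the 10 genes fell and none rose, where 14.6% of all genes were lower and 13.9% higher. The largest of these falls was that of Tnfaip3, at -1.53 ± 0.0785 (adjusted p = 2.9e-14), followed by Tnf at -1.34 ± 0.145 and Tnfrsf1b at -0.94 ± 0.106, while Birc2 and Cyld were not called. The smallest call, that of Traf2 (-0.20, adjusted p = 0.032), was lost in 10 of 18 alternatives, among them library totals and the fits without Day5 replicate 2 or Day7 replicate 1, 2 or 4 (log2 fold changes of -0.20 to -0.18).

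After Day7 the genes fell at different steps. From Day7 to Day10, Tnf, Traf1, Birc3, Cyld and Cflar were lower, against 18.0% of all genes, and none was higher, against 14.3%. Without Day7 replicate 2 only 2 of these 5 calls were left, and those of Tnf, Cyld and Cflar were lost (-0.39, -0.17 and -0.24, adjusted p = 0.073, 0.076 and 0.055). From Day10 to Day12, Tnf fell again (log2 fold change of -1.35 ± 0.158, adjusted p = 8.2e-08), with Tnfrsf1b, Traf1 and Tnfaip3, 4 genes where 20.7% of all genes were lower and 18.7% higher. From Day12 to Day14, Tnfrsf1b, Birc3, Tnfaip3, Cyld and Cflar were lower, 5 genes where 25.3% of all genes were lower and 19.9% higher. At an unadjusted P under 0.05 edgeR had 0 genes higher from Day5 to Day7, Day7 to Day10 and Day10 to Day12, as had DESeq2 after adjustment, and 1 from Day12 to Day14. This was Tnfrsf1a, which with DESeq2 size factors was called higher at the last step (log2 fold change of 0.16, adjusted p = 0.021), so that the split of 0 to 5 became 1 to 5.

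The genes whose levels ran most like each of the 10 over the 28 libraries were found by the Pearson correlation of log2 CPM among 12318 genes with a mean of at least 5 CPM. These correlations follow the day-to-day course that the libraries share and are given as a description. Nearest to Tnf were Ptgs2 (r = 0.984), the inducible cyclooxygenase of prostaglandin synthesis, and Slpi (0.977), a protease inhibitor. Nearest to Tnfrsf1b were the macrophage gene Cd68 (0.992) and the formyl peptide receptor gene Fpr1 (0.991). Traf1 ran with the chemokine receptor gene Ccr1 (0.985) and the granulocyte colony-stimulating factor receptor gene Csf3r (0.984), and Birc3 with the Fc receptor gene Fcgr2b (0.985) and Gda (0.984). Tnfaip3 was nearest to Ccrl2 (0.965) and Hgsnat (0.962), Tnfrsf1a to Ehd1 (0.982) and Slc16a1 (0.98), and Cflar to Sned1 (0.981) and Zeb2 (0.978). Cyld was nearest to Arhgef6 (0.959) and Stat5b (0.955). The 2 genes that changed little had weaker neighbours, Rela (0.876) and Mustn1 (0.856) for Traf2 and Cul3 (0.729) for Birc2.

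The rest of the pathway was described by 7 lists with 88 genes, all of which were tested. On Day3, 66 of the 88 were higher and 9 lower, beside the 31.8% and 34.8% of all genes given above, and their median log2 fold change was 0.59. On Day14, 12 were higher and 48 lower, beside 28.2% and 34.5% of all genes, with a median of -0.22. In between, 56 were higher and 10 lower on Day5 (29.0% and 30.6% of all genes), 36 and 18 on Day7 (25.6% and 24.8%), 20 and 23 on Day10 (23.5% and 26.9%), and 11 and 35 on Day12 (21.7% and 25.6%). The Day10 counts are near the shares over all genes. With library totals alone these splits became 22 to 16 on Day10, 22 to 23 on Day12 and 18 to 39 on Day14.

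All 5 NF-kappaB subunit genes were higher on Day3 and all 5 lower on Day14, with medians of 0.50 and -0.54. For this list and the next, the shares over all genes were 31.8% higher and 34.8% lower on Day3. On Day14 they were 28.2% and 34.5%. Nfkb2 rose most on Day3 (1.13 ± 0.0618) and Rela least (0.25 ± 0.0705), and on Day14 Relb was the lowest (-0.75 ± 0.0592) and Nfkb1 the highest (-0.38 ± 0.0545). Of the 16 inhibitors of NF-kappaB and partners of A20, 14 were higher and none lower on Day3, and 11 lower and none higher on Day14. Nfkbid, a nuclear IkappaB protein, had the largest Day3 value, 3.11 ± 0.164 (adjusted p = 1.8e-15), going from 1.63 to 2.34 CPM on Day0 to 14.8 to 17.3 CPM, and Tnip3 the smallest, -0.21 ± 0.14 (adjusted p = 0.2). On Day14 Nfkbie, another IkappaB gene, was lowest (-1.04 ± 0.0995) and the linear-chain deubiquitinase gene Otulin highest (0.03 ± 0.0885, adjusted p = 0.79).

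Of 19 known TNF target genes, 17 were higher and none lower on Day3, beside 31.8% and 34.8% of all genes, with a median of 2.21. On Day14, 2 were higher and 12 lower, beside 28.2% and 34.5% of all genes, with a median of -0.98. Csf3, the granulocyte colony-stimulating factor gene, had the largest Day3 value at 7.09 ± 0.239, from at most 6 counts in a Day0 library to at most 592 on Day3. Ccl20 had the smallest (0.01 ± 0.568, adjusted p = 0.99). Its Day0 libraries ranged from 0.0278 to 4.85 CPM, so its Day14 value of -4.05 ± 0.74 rests on a control group that varied widely. On Day14 the mitochondrial superoxide dismutase gene Sod2 was the highest of the list (0.49 ± 0.0697, adjusted p = 6.2e-07).

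Of the 9 genes of the death arm, 8 were higher and none lower on Day3 (median 0.69), beside 31.8% and 34.8% of all genes. They were led by Ripk3, the necroptosis kinase gene, at 1.97 ± 0.13 (adjusted p = 2.2e-13), with Diablo at -0.03 ± 0.055 (adjusted p = 0.63). On Day14, 2 were higher and 2 lower (median 0.01), beside 28.2% and 34.5% of all genes, and Bid was the lowest (-0.54 ± 0.0882). With library totals alone this split became 4 to 2, and that of the 16 inhibitors and partners, 0 to 11, became 1 to 9. Of 18 genes of the receptor complex and its ubiquitin chains, 11 were higher and 2 lower on Day3, again beside 31.8% and 34.8% of all genes. Their values ran from Traf5 (-0.87 ± 0.0895) to the kinase gene Ripk1 (0.73 ± 0.0647). On Day14, 4 of the 18 were higher and 7 lower, from Traf5 (-0.74 ± 0.0887) to Chuk (0.34 ± 0.0634). The Day14 counts of this list are near the 28.2% and 34.5% of all genes. With library totals alone its Day14 split became 6 to 2.

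Among 6 ligand and shedding genes, 3 were higher and 2 lower on Day3, beside 31.8% and 34.8% of all genes, so that the lower count is near that share. The lymphotoxin gene Ltb rose most (1.57 ± 0.161). Timp3, whose product inhibits the TNF-releasing protease ADAM17, fell to 86.0 to 90.7 CPM from 490 to 555 CPM on Day0 (-2.56 ± 0.0544, adjusted p = 2e-23). On Day14, Adam17 (-0.36 ± 0.0728) and Rhbdf2 (0.23 ± 0.0716), which guides ADAM17 to the cell surface, were the extremes of a split of 1 to 2, near the 28.2% and 34.5% of all genes, which became 1 to 1 with library totals alone. Of 15 other TNF receptor family genes, 8 were higher and 5 lower on Day3, the lower count near the 34.8% of all genes (31.8% higher), from Ngfr (-1.72 ± 0.137) to Tnfrsf9 (2.85 ± 0.209). On Day14, 3 of the 15 were higher and 9 lower, beside 28.2% and 34.5% of all genes, from Eda2r (-1.28 ± 0.185) to Tnfrsf12a (0.48 ± 0.156).

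**Figure D4:**
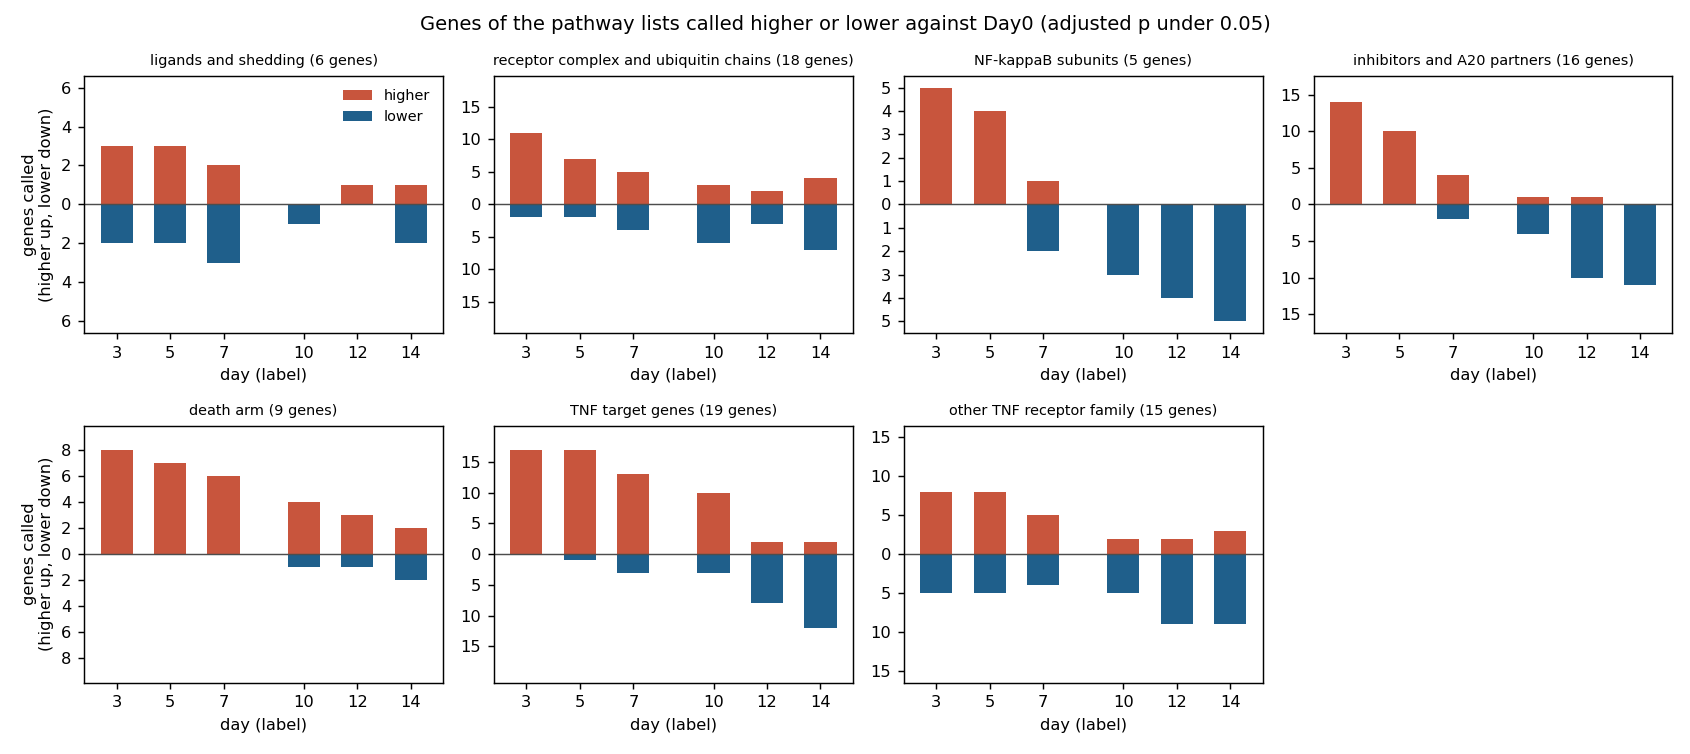
Number of genes in each of 7 lists called higher (upwards) or lower (downwards) than on Day0 at an adjusted p under 0.05 (vertical axis) by day (horizontal axis). The NF-kappaB subunits go from 5 higher on Day3 to 5 lower on Day14, and the TNF target genes from 17 higher to 12 lower.

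Leukocyte, neutrophil and macrophage markers also rose early and had fallen back by Day14, whereas the T cell sum was below Day0 on every wound day. On Day10 the leukocyte sum was already down to 427 to 485 CPM, while Tnf and Tnfrsf1b were still called higher than on Day0. Of all genes tested, 31.8%, 29.0%, 25.6%, 23.5% and 28.2% were higher on Day3, Day5, Day7, Day10 and Day14. The shares lower were 34.8% on Day3 and 34.5% on Day14. In bulk tissue a lower share of a cell type and less RNA per cell cannot be told apart. All 5 pan-leukocyte genes were higher on Day3 and all 5 lower on Day14, with summed levels of 500 to 617 CPM on Day0, 1610 to 1660 CPM on Day3 and 228 to 247 CPM on Day14. All 8 neutrophil genes were higher on Day3, Day5, Day7 and Day10, and their sum went from 17.0 to 46.4 CPM on Day0 to 4530 to 5720 CPM on Day3 and 16.9 to 19.9 CPM on Day14. The defining neutrophil gene Ly6g was at 0 in all Day0 libraries and had at most 399 counts in a Day3 library. All 9 monocyte and macrophage genes were higher on Day3 and Day5 and lower on Day14, with sums of 2070 to 2970 CPM on Day0, 5640 to 6160 CPM on Day5 and 964 to 1040 CPM on Day14. The T cell sum, over 7 of 8 listed genes, was 59.1 to 66.8 CPM on Day0, 44.4 to 50.2 CPM on Day3 and 26.1 to 34.5 CPM on Day14. Of these 7 genes 5 were lower and 2 higher on Day3, the higher count near the 31.8% of all genes. The part of these shifts in the changes of the 10 genes was not tested.

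Markers of the resident tissue also shifted with the day. The 6 basal keratinocyte genes, which mark epidermis, summed to 3900 to 8170 CPM on Day0, 3570 to 4440 CPM on Day3, 3170 to 3630 CPM on Day5, 3080 to 3550 CPM on Day7 and 4790 to 5980 CPM on Day14. Of these genes 4 were lower on Day3 and Day5, 5 on Day7 and 3 on Day14, when 1 was higher. The shares of all genes lower on these days were 34.8%, 30.6%, 24.8% and 34.5%, and 28.2% were higher on Day14. Fibroblast genes were at 21500 to 23600 CPM on Day3, 55000 to 56000 CPM on Day7 and 16000 to 19100 CPM on Day14. All 6 skeletal muscle genes were lower than on Day0 on every wound day, where 24.8% to 34.8% of all genes were lower. Their sums were 16400 to 30000 CPM on Day0 and 3790 to 10100 CPM later. The 4 keratins of the wound edge summed to 468 to 709 CPM on Day0 and 2450 to 2980 CPM on Day3. On Day3, 3 of them were higher, where 31.8% of all genes were. Hair follicle genes ranged from 233 to 2090 CPM on Day0, 6.91 to 13.6 CPM on Day3 and 3200 to 4320 CPM on Day14. Endothelial genes summed to 374 to 552 CPM on Day0, 751 to 827 CPM on Day3 and 360 to 414 CPM on Day14. The 5 adipocyte genes summed to 2210 to 2950, 4260 to 5370 and 3960 to 4140 CPM on the same days, but on Day3 only Fabp4 was higher (log2 fold change of 1.72, adjusted p = 8.3e-15), while Adipoq and Lep were lower (-0.19 and -1.25, adjusted p = 0.0079 and 4.8e-10). Whether these shifts bear on the low Day14 levels of Birc3, Tnfaip3 and Cyld was not tested.

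**Figure D5:**
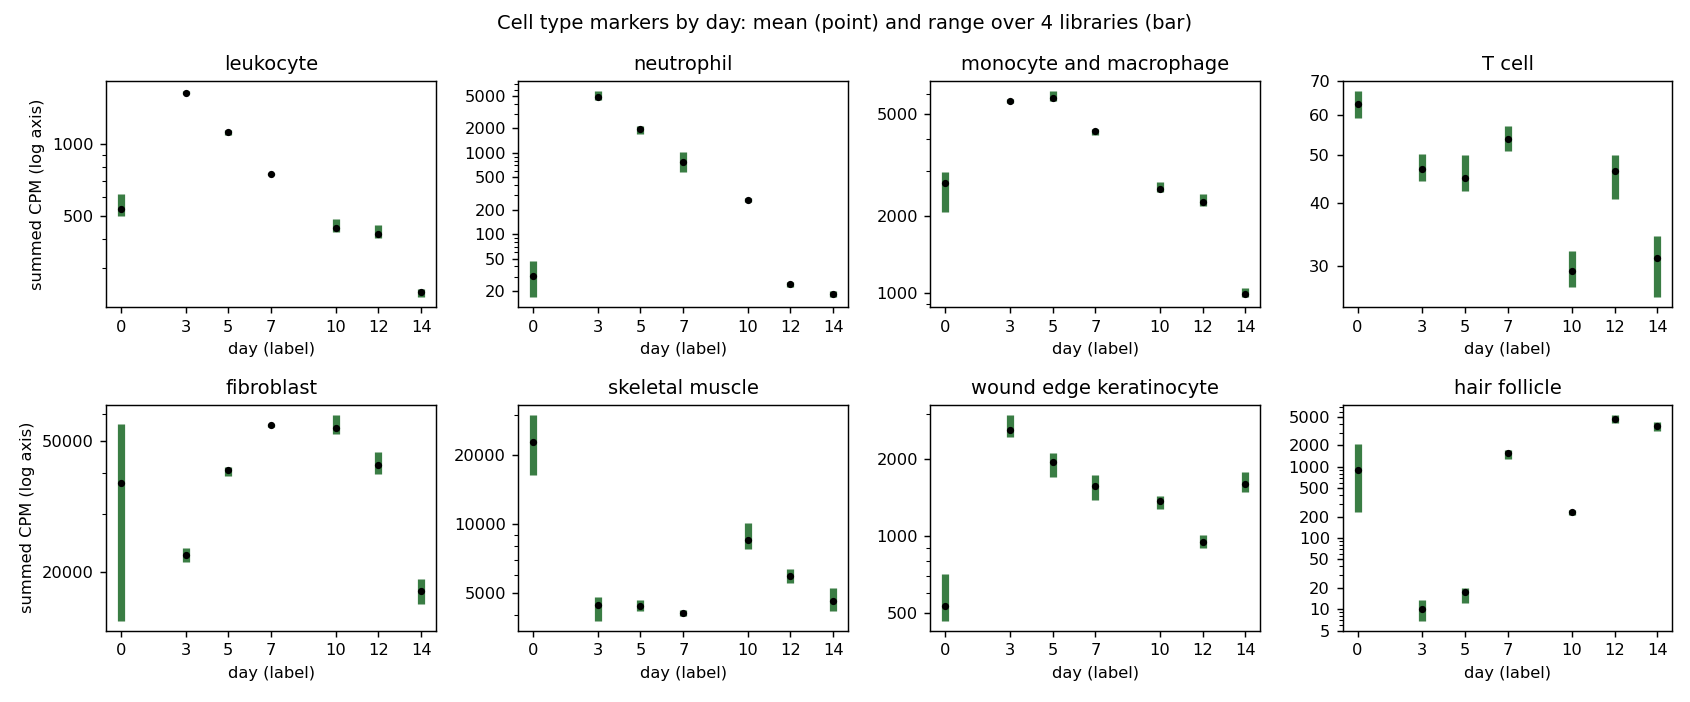
Summed CPM of 8 marker lists (vertical axis, logarithmic, its range differs between panels) by day (horizontal axis), with the mean as a point and the range of 4 libraries as a bar. Leukocyte, neutrophil and macrophage sums are highest on Day3 or Day5 and lowest on Day14, and the fibroblast sum on Day0 spans 14300 to 56000 CPM.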

How the data were processed

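Total RNA of wound tissue was extracted with TRIzol and sequenced by a company, in 28 libraries of 7 time points. The authors deposited raw counts per gene symbol and, in a separate table, FPKM values, in which each count was scaled to the library total and to 1 fixed length per gene (largest relative spread of this relation 1.22e-07 over 14411 genes). The submitters' processing notes name fastp, R 3.2.0 and mm10, and the study names DESeq2. Aligner, counter, annotation and strandedness are not given in the sources used here, so reads of overlapping genes cannot be told apart.

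The 10 genes, the lists, the pairs and the tests were chosen with earlier results of these data known. Groups and replicate numbers came from the labels. Counts were tested in R 4.3.3 with edgeR 4.0.16 by its two-sided quasi-likelihood test (TMM scaling, filterByExpr on the 7 groups), with all 28 libraries fitted together and no covariates. P-values were adjusted by Benjamini-Hochberg over 18107 genes, 10 of them members, and an adjusted p under 0.05 is called. Of 29068 symbols 347 were at 0 throughout. A fold in words is 2 to the power of the fitted log2 fold change. Because FPKM uses library totals and the test uses TMM, groups can overlap in one and not in the other. Single genes were also compared by exact permutation of log2 CPM (prior count 2), and pairs by the log2 ratio of counts with 0.5 added. The code was tested on simulated counts. Named genes were the 10 members, for each the 2 best correlated genes with mean CPM of at least 5, and per list the largest and smallest change on Day3 and Day14. A few results that this rule would name are not reported here. Alternatives were DESeq2 1.42.0 and its size factors, library totals, no filter, at least 10 counts in every library, only the 8 libraries compared, limma 3.58.1 on log2(FPKM + 1) and log2(FPKM + 0.1), also at a mean FPKM of at least 1, a replicate block, and each library left out. With 36706513 to 40655764 counts a library, the lowest member value rested on 66 counts, and 0 counts allow up to 3. Intervals and floors cover counting error only. No 2 libraries of a day agreed within sampling noise (lowest median chi-square of 1.42). Promoter bases were taken from RefSeq.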

Additional observations from a re-analysis of the deposited data

Results flagged for a closer look

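In 5 of 70 groups of 4 libraries (10 genes on 7 days) 1 library stood apart from the other 3 in log2 CPM, where about 1 in 20 groups, or 3.5, would do so by chance. Tnf in Day0 replicate 4 was at 1.52, above the 0.78 to 0.88 of the others. Tnfaip3 was at 4.97 in Day7 replicate 2, above 4.61 to 4.64, and at 4.02 in Day14 replicate 2, above 3.90 to 3.91. Birc3 in Day14 replicate 4 was at 4.42, above 4.19 to 4.20. Cflar in Day5 replicate 4 was at 6.38, below 6.72 to 6.79.

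For 6 genes, the level was called higher than Day0 on at least 1 day and lower on another, as for 23.8% of all genes tested, and the difference between those days was itself tested in edgeR. The days are those of the highest and lowest value of each gene, picked after the values were seen. Tnfrsf1a was higher on Day3 than on Day12 by 1.15 on the log2 scale (adjusted p = 3.3e-16). Tnfrsf1b, Traf1 and Birc3 were higher on Day3 than on Day14 by 2.56, 1.87 and 2.29 (adjusted p = 1.7e-17, 2.1e-15 and 3.1e-18). Tnfaip3 and Cflar were higher on Day5 than on Day14 by 2.32 and 1.01 (adjusted p = 2.3e-19 and 2.8e-11).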

How the results depend on the processing

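Over all alternatives, 1440 log2 fold changes of single genes kept their direction and side of the threshold, 166 were no longer past it, 29 moved past it and 33 changed sign. All 48 pair ratios on log2 FPKM kept theirs. With 1 library left out the pairs were not tested, since 3 libraries against 4 allow no p below 0.0571, and 9 of 192 values, none of a called pair, changed sign: Traf1 to Traf2 on Day12 (down to -0.0759) and Tnfaip3 to Cyld on Day14 (down to -0.0173). Every member had at least 66 counts in every library, and how depth limits the calls was not tested. In 70 cases the call of a single gene was lost when 1 library was left out. The cause of the changes below was not tested.

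Among the counts of members against Day0, the 1 lower on Day3 became 0 with DESeq2 size factors, with DESeq2 and without either pair of Day0 libraries (replicates 1 and 4, or 2 and 3, alternatives chosen after seeing the data). The 1 lower on Day5 became 0 in edgeR on the 8 libraries and without Day0 replicates 2 and 3. The 2 lower on Day7 became 1 without Day0 replicates 1 and 4, and the 3 lower on Day10 became 1 on the 8 libraries. The 1 higher on Day12 became 2 with library totals, with all limma settings and without Day0 replicates 1 and 4, and 0 on the 8 libraries and without Day0 replicates 2 and 3. The 6 lower on Day12 became 2 with library totals and all limma settings and 3 without Day0 replicates 1 and 4. The 8 lower on Day14 became 5 with limma on log2(FPKM + 1) and on the 8 libraries. From Day3 to Day5 the 2 lower became 1 with library totals, no filter and all limma settings. From Day7 to Day10 the 5 lower became 3 with library totals and limma on log2(FPKM + 1), with or without the FPKM minimum, and 2 with limma on log2(FPKM + 0.1). From Day12 to Day14 the 0 higher became 1 with DESeq2 size factors, DESeq2 and the 8 libraries. Of the pathway genes on Day12, 22 instead of 11 were higher and 23 instead of 35 lower with library totals. With 1 library left out, the lower counts ran from 0 to 1 on Day3 and Day5, 1 to 3 on Day7, 3 to 5 on Day12, 5 to 8 on Day14, 1 to 3 from Day3 to Day5 and 2 to 5 from Day7 to Day10, and the higher counts from 0 to 1 on Day12 and 1 to 2 from Day3 to Day5.

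Values that changed sign were not called. With library totals Tnfrsf1a became 0.0028 on Day7 and 0.0126 on Day14 and Cflar 0.0082 on Day12. With limma on log2(FPKM + 1), with or without the minimum, they were 0.0063, 0.016 and 0.0134, and on log2(FPKM + 0.1) 0.0064, 0.0162 and 0.0156. Without Day0 replicates 1 and 4, Traf2 on Day5 became 0.0243, Tnfrsf1a on Day7 0.1035 and Birc3 on Day7 -0.0355. Without Day0 replicates 2 and 3, Cyld on Day3 became 0.0523, Cflar on Day10 0.0932 and on Day12 0.0469, Tnfrsf1b on Day12 -0.0264 and Tnf on Day14 -0.0803. With 1 library left out, Cyld on Day3 ran from -0.0528 to 0.0134, Traf2 on Day5 from -0.0303 to 0.0414, Tnfrsf1a from -0.04 to 0.0602 on Day7 and from -0.1536 to 0.0261 on Day14, Tnfaip3 from -0.0088 to 0.116 on Day7 and from -0.0115 to 0.1162 on Day10, and Tnf on Day14 from -0.079 to 0.3337.

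Replicate numbers are shared between days, but libraries of 1 number did not deviate together (mean r of 0.00064 over 84 pairs, 1 pair over 0.1, 8 of 28 libraries best with their own number), so they share only a number. With the replicate block 1 call of a member changed: Tnf from Day12 to Day14 (-0.40, adjusted p = 0.052) became called lower (-0.41, adjusted p = 0.044), so that 6 instead of 5 genes were lower at this step. The block changed no other call of a member, with 8 genes lower on Day14 and Tnf on Day12 at 0.4575. The block was not applied to the pair ratios.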
